A study of Branchiostoma lanceolatum with 6 samples.

Results

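Eomes/Tbr1/Tbx21, Tbx15/18/22 and Tbx1/10 are T-box genes of the amphioxus *Branchiostoma lanceolatum*, and they were followed across the cell types and metacells of a single-cell atlas of the neurula. They are the rows BLAG16000298, BLAG01000895 and BLAG01102804 of the UMI count table, 3 of its 27073 genes. They were chosen by name, with earlier results of these data known, and all 3 were detected. A UMI (unique molecular identifier) tags an RNA molecule before amplification, so that its copies are counted once. The atlas came from wild-type embryos kept at 19 °C and dissociated at 21 hours post-fertilization, with no treatment and no control group. Embryos were pooled for each dissociation, and live cells were sorted on Calcein and propidium iodide into 40 plates. The 2 scRNA-seq samples of the series share this description, and a cell's name does not say which of them it belongs to. The 14586 cells were treated as 1 sample without a biological replicate, and no test across samples was possible.

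T-box factors bind DNA through the T-box domain, whose best known target is the T half-site with the core GGTGT. The slash in an amphioxus name lists the vertebrate genes that descend from the same ancestral gene. In mouse, Eomes acts in the formation of mesoderm and definitive endoderm, Tbr1 in neurons of the cortex, and Tbx21 (T-bet) in lymphocytes. Mouse Tbx18 is expressed in the anterior part of each somite, and Tbx15 acts in skeleton and skin. Mouse Tbx1 acts in the pharynx and in the muscles of the head. In amphioxus the mesoderm of the trunk is divided into somites along the whole body axis, and the endostyle is a gland of the pharynx that is related to the vertebrate thyroid. The tailbud is the posterior growth zone from which the axial tissues of the later body extend.

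The letters such factors recognize are shown by 3 sites that the study aligned to T-box motifs in ATAC-seq peaks around *Gata1/2/3*, *Pitx* and *Tbx1/10* itself. They were printed because these are the T-box matches listed for its candidate regulatory regions, and the longest alignment was taken at each. Capitals mark the core GGTGT, read 5′ to 3′ on the strand that holds it, in the authors' *B. lanceolatum* assembly.
Gata1/2/3 site, chr5:9234108-9234127, plus strand: actatcacaaaGGTGTgaaa
Pitx site, scaf462:152-163, plus strand: gtgGGTGTgaag
Tbx1/10 site, chr1:18223778-18223787, minus strand: gaGGTGTtat
The Gata1/2/3 and Pitx sites share GGTGTGAA, whereas the Tbx1/10 site goes on with TAT after the core. A motif match is a description of the letters and not of a bound factor. Whether these positions are exonic or intronic was not given in the sources used here, and no genome was used to count how often the core occurs elsewhere.

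The atlas held 17 cell types in 176 metacells, groups of cells with like transcriptomes that were built by the authors. The median depth was 1585 UMIs a cell, and medians by type ran from 415.5 to 6757.5. The labels were compared with markers before the T-box genes were read. The authors named the types from known markers on the same cells, so this describes the labels and is not an independent check of them. All 5 muscle markers were highest in the muscular somites, all 4 notochord markers in the notochord, all 4 tailbud markers in the tailbud and all 3 endostyle markers in the endostyle and club-shaped gland. In the non-muscular somites 2 of 4 markers were highest, and all 4 lay among the 3 highest types. In the endoderm 1 of 4 markers was highest and all 4 were among the 3 highest types, in the neural cells 1 of 4 was highest and 3 were among the 3 highest, and in the posterior epidermis 2 of 4 were highest and 2 passed 2-fold. A level is the summed UMIs of a gene per 10000 UMIs of all genes in a group of cells. Its 95% interval is an exact Poisson interval, and a share of cells has an exact Clopper-Pearson interval. Both cover counting error only, and not the spread between cells or embryos.

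The genes differed in how widely and where they were found. Eomes/Tbr1/Tbx21 gave 3313 UMIs in 1827 cells (12.5% of all cells) and was found in all 17 cell types. Tbx15/18/22 gave 432 UMIs in 220 cells (1.51%), of which 66.2% lay in the non-muscular somites and 12.7% in the muscular somites. Tbx1/10 gave 114 UMIs in 83 cells (0.569%), with 38.6% in the endostyle and club-shaped gland and 21.1% in the muscular somites. The genes thus differed in their distribution, although Eomes/Tbr1/Tbx21 and Tbx15/18/22 were both high in the non-muscular somites. The muscular somites were the only type that stood among the 6 highest for each gene and held more than 20 UMIs of each. For Eomes/Tbr1/Tbx21 they did not reach 2-fold over all other cells (1.62). Fewer expressing cells and less RNA per cell cannot be told apart from the summed levels alone, so shares of cells are given beside them.

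**Figure D1:**
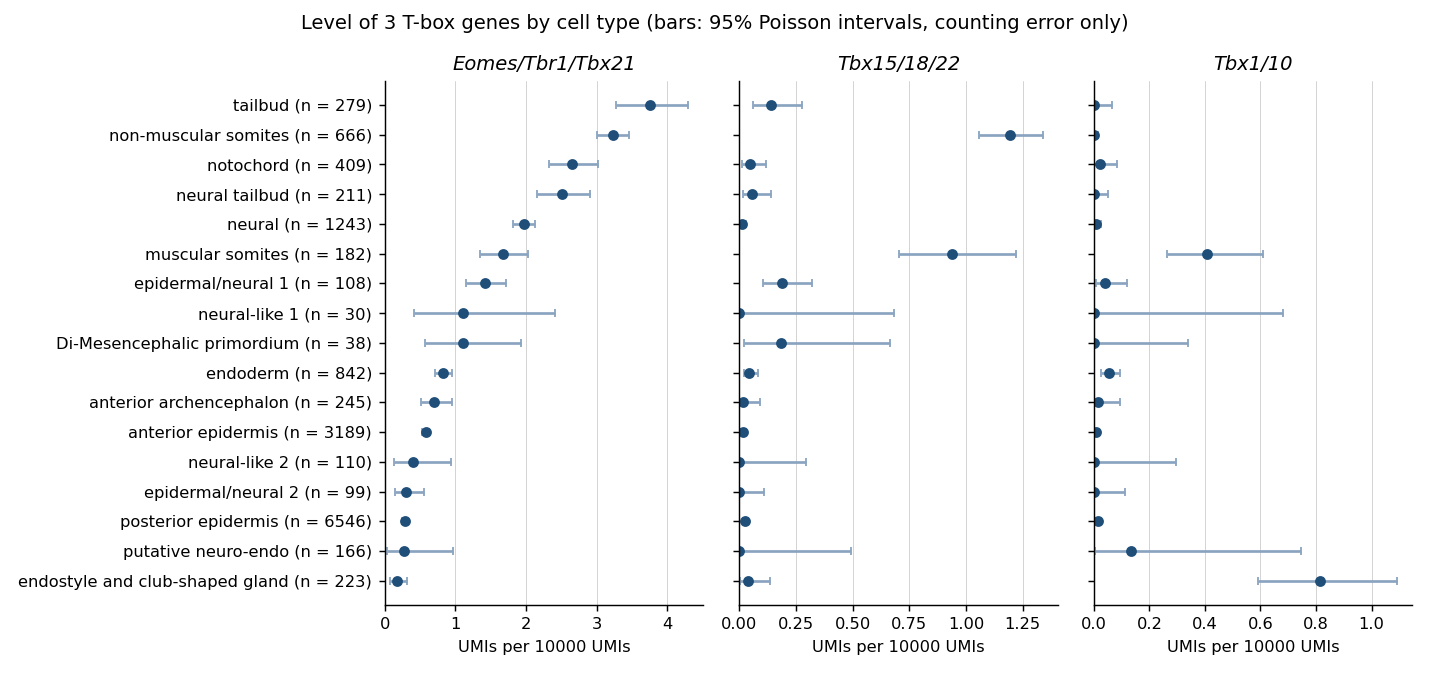
Level (UMIs per 10000 UMIs, x axis) of each gene in the 17 cell types (y axis, with the number of cells), with exact 95% Poisson intervals as bars. Eomes/Tbr1/Tbx21 falls gradually from the tailbud (3.76) to the endostyle (0.166), Tbx15/18/22 stands out in the somites (1.19 and 0.937), and Tbx1/10 in the endostyle (0.813) and muscular somites (0.409).

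Eomes/Tbr1/Tbx21 was highest in the tailbud, the non-muscular somites and the notochord, and its levels formed a gradient over the types rather than a step. The level was 3.76 in the tailbud (3.28 to 4.30, 279 cells), 3.23 in the non-muscular somites (3.0 to 3.46, 666 cells) and 2.65 in the notochord (2.32 to 3.02, 409 cells). It was 2.51 in the neural tailbud (2.16 to 2.90, 211 cells), 1.97 in the neural cells (1.82 to 2.12, 1243 cells) and 1.67 in the muscular somites (1.36 to 2.03, 182 cells). The tailbud and the non-muscular somites did not differ beyond counting error, at a ratio of 1.17 (0.998 to 1.36), nor did the notochord and the neural tailbud, at 1.06 (0.867 to 1.29). The steps from the non-muscular somites to the notochord (1.22, 1.05 to 1.42) and from the neural tailbud to the neural cells (1.28, 1.08 to 1.51) were larger than counting error.

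The lower end of that order held the epidermis and the endostyle. The anterior epidermis had a level of 0.581 (0.533 to 0.633) and the posterior epidermis 0.282 (0.250 to 0.318), a ratio of 2.06 (1.78 to 2.40). The endostyle and club-shaped gland came last, with 9 UMIs in 223 cells and 0.166 (0.076 to 0.316), and did not differ beyond counting error from the putative neuro-endo cells above it (1.61, 0.169 to 7.76). This was 4.96 times lower than in the endoderm, whose level was 0.825. With equal weight to each plate the endostyle was at 0.357 and the posterior epidermis at 0.264, so the last place depends on how the cells are averaged. The endostyle mean is uncertain: 28 of its 36 plates held no UMI, none held more than 2, and the highest plate stood at 7.36. Within the nervous system the anterior archencephalon, at 0.703, lay 2.80 times below the other neural cells.

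Against all other cells Eomes/Tbr1/Tbx21 was 3.79-fold higher in the tailbud (3.29 to 4.36) and 2.49-fold higher in the neural tailbud (2.13 to 2.89). At least 2-fold is a common change in this atlas: 21.4% of the 2275 genes with 50 or more UMIs passed it in the tailbud and 21.2% in the neural tailbud. By size the gene ranked 120 of 2275 in the tailbud, 278 of 5534 in the non-muscular somites (where 26.8% passed) and 469 of 2803 in the notochord (25.9%). It passed in the neural cells too, at 2.1-fold, where 24.5% of genes did, and in the muscular somites it did not, at 1.62-fold, where 36.0% did. No single type carried the gene.

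The share of cells with a UMI followed the depth as well as the level. Eomes/Tbr1/Tbx21 was found in 43.5% of non-muscular somite cells (median 3001.5 UMIs), 39.8% of tailbud cells (1638 UMIs) and 47.9% of neural tailbud cells (3352 UMIs). In the posterior epidermis, which was taken as the background, it was found in 3.5% of cells at a median of 1246 UMIs. After thinning every cell to 500 UMIs the shares were 12.9%, 14.7%, 11.2% and 1.28%, with 14, 7, 0 and 548 shallower cells left out. At matched depth all 3 were well above the epidermis.

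Within a cell type the gene was uneven, and the metacells of the non-muscular somites ran from high to low. Metacells 23 and 24 had levels of 6.73 (5.96 to 7.57, 90 cells) and 6.57 (5.44 to 7.86, 62 cells), the highest of all 176. Metacell 25 had 4.25 and metacell 26 had 2.22, while metacells 20, 21, 22 and 27 lay between 0.717 and 1.23. In metacell 23, 76 of the 90 cells held the gene. These metacells also held Wnt1, a Wnt ligand of the tailbud, at 15.9 and 25, against 0.0534 to 3.5 in the other 6. Gata1/2/3, a zinc-finger factor, was lowest in metacells 23 and 24, at 0.463 and 0.334, and highest in metacells 26 and 27, at 8.02 and 17.3.

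**Figure D2:**
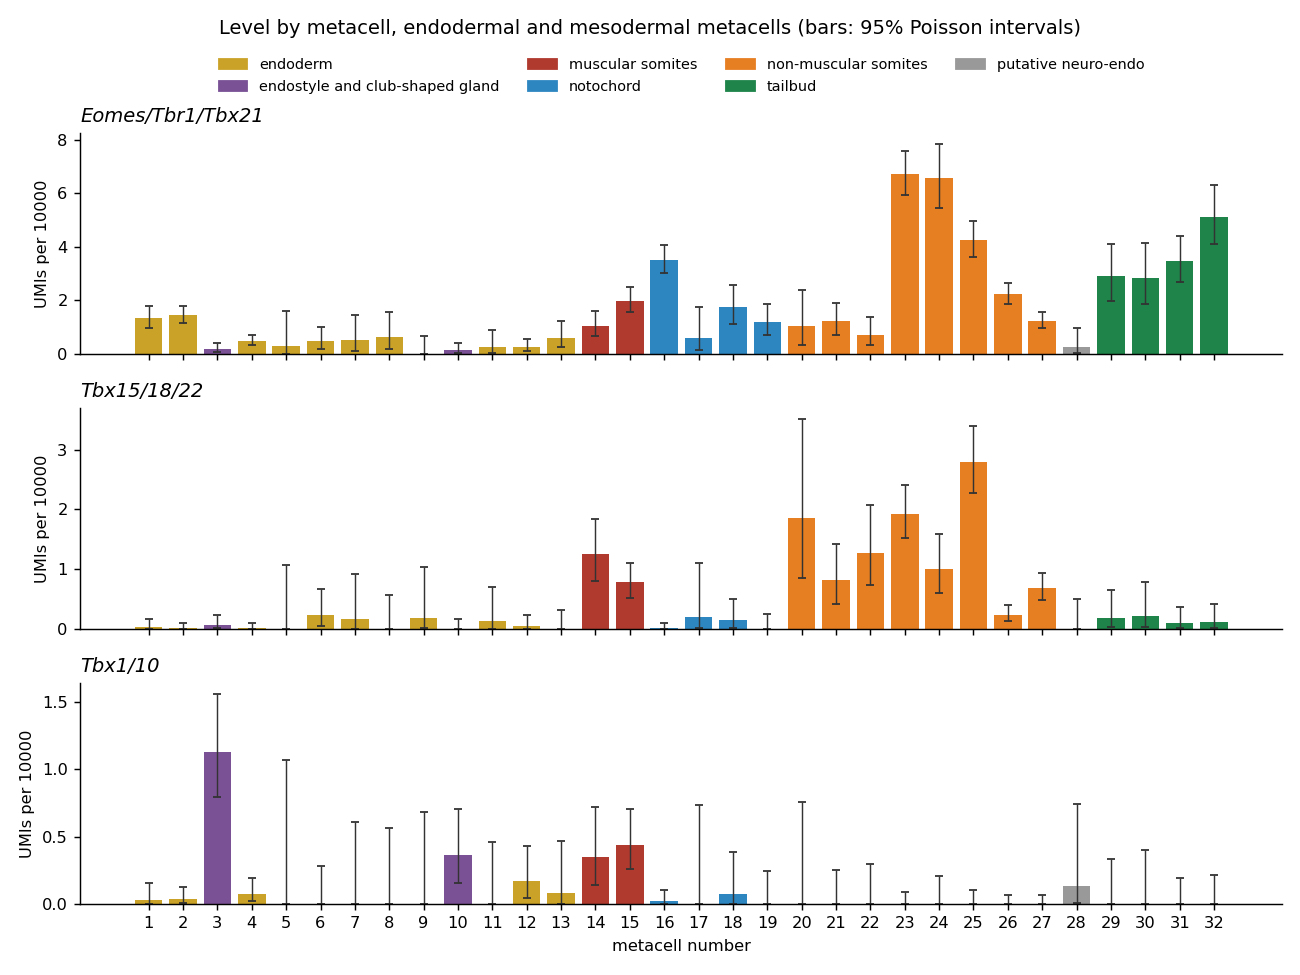
Level (UMIs per 10000 UMIs, y axis) of each gene in metacells 1 to 32 (x axis), coloured by cell type, with exact 95% Poisson intervals. Eomes/Tbr1/Tbx21 peaks in metacells 23 and 24 and is uneven in the notochord, Tbx15/18/22 is confined mainly to the metacells of both somite types, and Tbx1/10 has bars above 0.3 only in metacells 3, 10, 14 and 15.

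The notochord, the tailbud and the endoderm were uneven in the same gene. In the notochord, metacell 16 had a level of 3.51 and metacells 17 to 19 had 0.595, 1.73 and 1.19. The value of metacell 17 rests on 3 UMIs (0.123 to 1.74). Metacell 16 was also the highest of the 4 in Tenascin, a matrix glycoprotein, at 8.81, and the lowest but 1 in Mnx, a homeobox factor of the notochord, at 2.99. In the tailbud, metacell 32 had 5.12 and metacells 29 to 31 had 2.91, 2.83 and 3.47. Metacell 32 was the tailbud metacell with the most Brachyury2 (13.5), Wnt1 (34.5), Gsc (12.6) and Foxaa-1275 (5.64), the last a forkhead factor of axial mesoderm and endoderm.
In the endoderm, metacells 1 and 2 had 1.33 and 1.45, and the other 9 lay between 0 and 0.612. Together metacells 1 and 2 were 3.38 times (2.45 to 4.72) above the others. Metacells 5, 7 and 8 were shallow, and their intervals reached 1.61, 1.45 and 1.57. Among the 15 neural metacells the range was 0.277 to 3.47, with the maximum in metacell 49 (2.98 to 4.02). The lowest value, in metacell 42, rests on 2 UMIs (0.0335 to 0.999).

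At the level of single cells, the somite cells with Eomes/Tbr1/Tbx21 had more Wnt1 and Hox3 RNA than those without. The 290 non-muscular somite cells with a UMI of the gene had a Wnt1 level of 7.49 and the other 376 cells 2.14, a ratio of 3.5 (3.03 to 4.06). Hox3, a Hox gene, had a ratio of 2.24 (1.74 to 2.91), whereas Gata1/2/3 was lower in these cells, at 5.30 against 9.31, and Snail, a zinc-finger factor of mesoderm, was nearly level (1.14, 1.01 to 1.28). In the tailbud the 111 cells with the gene had higher levels of Wnt1 (1.97, 1.76 to 2.22), Notum, which encodes an inhibitor of Wnt ligands (5.99, 2.69 to 15.7), Gsc, a homeobox gene of the organizer (2.98, 2.28 to 3.94), and Foxaa-1275 (3.33, 2.14 to 5.36). Cells with the gene were deeper, with median UMIs of 4013.5 against 2162 in the somites and 2314 against 1262 in the tailbud, which the levels divide out. Thinned to 500 UMIs, Wnt1 was found in 26.7% of somite cells with the gene and 8.30% of those without. Of the 290 somite cells, 76 were in metacell 23 and 47 in metacell 24, and of the 111 tailbud cells 40 were in metacell 32. These metacells were also high in Wnt1, and the cells were not compared within metacells.

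Tbx15/18/22 was a gene of both somite types and of little else. The level was 1.19 in the non-muscular somites (1.06 to 1.34, 286 UMIs) and 0.937 in the muscular somites (0.706 to 1.22, 55 UMIs). These 2 types did not differ beyond counting error, at a ratio of 1.27 (0.951 to 1.73), which leaves room for up to 1.73 times. The next type, epidermal/neural 1, had 0.190 (14 UMIs) and lay 4.92 times (2.7 to 9.59) below the muscular somites. Summed, the somites were 36.2 times (28.6 to 46.1) above all other cells, which held 91 UMIs in 13738 cells.

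Close neighbours of the somites had little of the gene. The tailbud held 8 UMIs and a level of 0.140, which was 8.52 times below the non-muscular somites, and the notochord held 4 UMIs (0.0455). The neural cells held 4 UMIs at 0.0122, the lowest level of the 13 types with any. In epidermal/neural 2, the 2 small neural-like types and the putative neuro-endo cells no UMI was found. The depth there allows levels of up to 0.0904, 0.555, 0.240 and 0.401 by the 3 counts that a count of 0 cannot exclude.

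Against all other cells Tbx15/18/22 was 24-fold higher in the non-muscular somites (19.6 to 29.5), rank 10 of 5534, where 26.8% of genes passed 2-fold. In the muscular somites it was 7.75-fold higher (5.73 to 10.3), rank 133 of 1956, where 36.0% did. The muscular value is lowered by its reference, which holds the non-muscular somites. Over the median of the other types it was 29.2-fold. That median lies between the posterior epidermis (26 UMIs) and the endostyle (2 UMIs), so this fold is imprecise.

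The share of cells with Tbx15/18/22 was 17.9% (15% to 21.0%) in the non-muscular somites and 14.3% in the muscular somites, and 0.336% in the posterior epidermis. Thinned to 500 UMIs these shares were 5.10%, 4.72% and 0.117%. The deepest finding was 16 UMIs in a single cell, while 134 of the 220 cells with the gene held 1 UMI. The UMIs were therefore few per cell, and most somite cells held none.

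All 8 metacells of the non-muscular somites and both of the muscular somites held Tbx15/18/22. Metacell 25 was highest, at 2.79 (2.27 to 3.39, 34 of 89 cells), followed by 23 at 1.93, 20 at 1.85, 22 at 1.27, 14 at 1.25 and 24 at 1.0. Metacell 26 was the lowest of the 10, at 0.231 (0.123 to 0.395), and lay 2.93 times below metacell 27. The interval of metacell 20 was wide (0.847 to 3.52), with 9 UMIs. Of the 166 metacells outside the somites none was above 0.425.

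**Figure D3:**
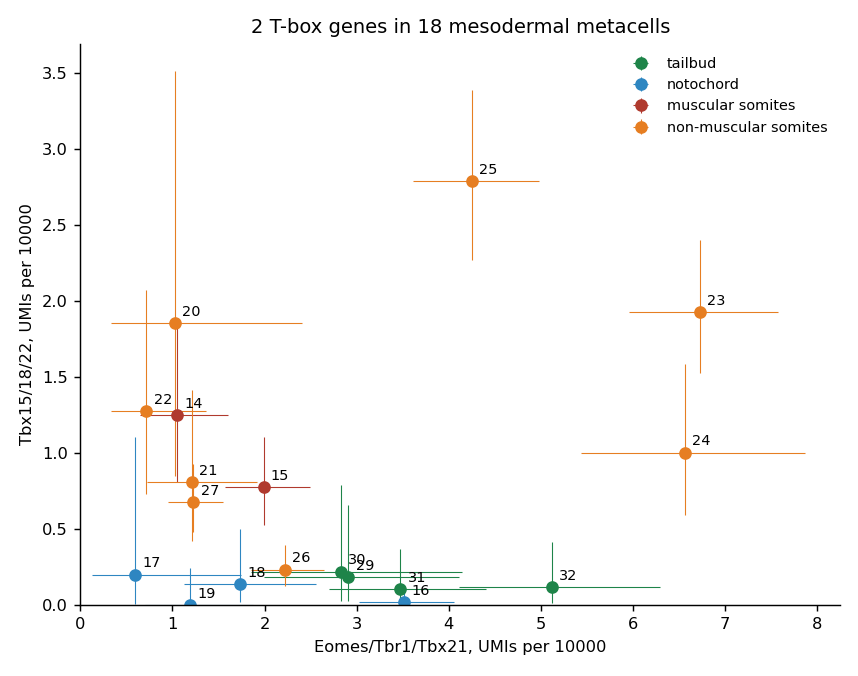
Levels of Eomes/Tbr1/Tbx21 (x axis) and Tbx15/18/22 (y axis), both in UMIs per 10000 UMIs, in 18 numbered mesodermal metacells, with exact 95% Poisson intervals. Metacells 23, 24 and 25 are high in both or in the first, the tailbud and notochord metacells lie along the x axis, and metacells 20, 22 and 14 hold Tbx15/18/22 at a low level of the other gene.

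The 2 genes that shared the somites were thus arranged differently inside them. The ratio of non-muscular to muscular somites was 1.93 (1.57 to 2.41) for Eomes/Tbr1/Tbx21. Metacells 23 and 24, picked for their level of Eomes/Tbr1/Tbx21, were together 1.57 times (1.22 to 2.02) above the rest of their type in Tbx15/18/22. This came from metacell 23, at 1.93, since metacell 24, at 1.0, was not above the rest, at 1.04. Metacell 26 was high in the first relative to the second (2.22 and 0.231), and metacell 20 was low (1.03 and 1.85). Over all 176 metacells the correlation of log2 levels was 0.34 (Pearson) and 0.22 (Spearman). It is a description only, since the metacells share their plates and 112 of them held no Tbx15/18/22.

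In single cells of the non-muscular somites the 2 genes were found together in 75 cells, which is 63.0% (53.7% to 71.7%) of the 119 cells with Tbx15/18/22 and 25.9% of the 290 with Eomes/Tbr1/Tbx21. Of the 376 cells without Eomes/Tbr1/Tbx21, 11.7% held Tbx15/18/22. Among cells with 1000 or more UMIs the shares were 66.1%, 25.8% and 12.4%. The level of Eomes/Tbr1/Tbx21 was 4.58 in cells with Tbx15/18/22 and 2.83 in cells without, a ratio of 1.62 (1.39 to 1.88). In the muscular somites 9 of 26 cells with Tbx15/18/22 held both.
Tbx15/18/22 was thus found in a larger share of the cells with Eomes/Tbr1/Tbx21 than of the cells without. The cells with it were also deeper. Thinned to 500 UMIs, Tbx15/18/22 was found in 6.49% of the cells with Eomes/Tbr1/Tbx21 and 3.98% of those without.

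Other RNAs of somite cells with Tbx15/18/22 differed from those of cells without. In the non-muscular somites Hox3 was at 2.54 against 0.992 (2.56, 2.04 to 3.21), Foxc, a forkhead factor of paraxial mesoderm, at 4.21 against 2.26 (1.86, 1.58 to 2.19), and Snail at 6.27 against 4.12 (1.52, 1.34 to 1.73). Wnt1 was at 4.56 against 5.27 (0.866, 0.750 to 0.996). That interval ends close to 1 and leaves out the spread between cells, so no direction is read from it. In the muscular somites Foxc was at 13.9 against 6.92 and Hox3 at 2.61 against 1.22, while Titin-like, a giant sarcomere protein, was at 14.3 against 21.2 (0.676, 0.565 to 0.804). Foxc and Hox3 levels were thus higher in the cells with the gene in both somite types. Of the 119 non-muscular somite cells with the gene, 34 were in metacell 25 and 23 in metacell 23, against 10 in metacell 26. Of the 26 muscular somite cells, 14 were in metacell 14 and 12 in metacell 15. The cells were not compared within metacells, so differences between metacells were not separated from differences between cells.

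**Figure D4:**
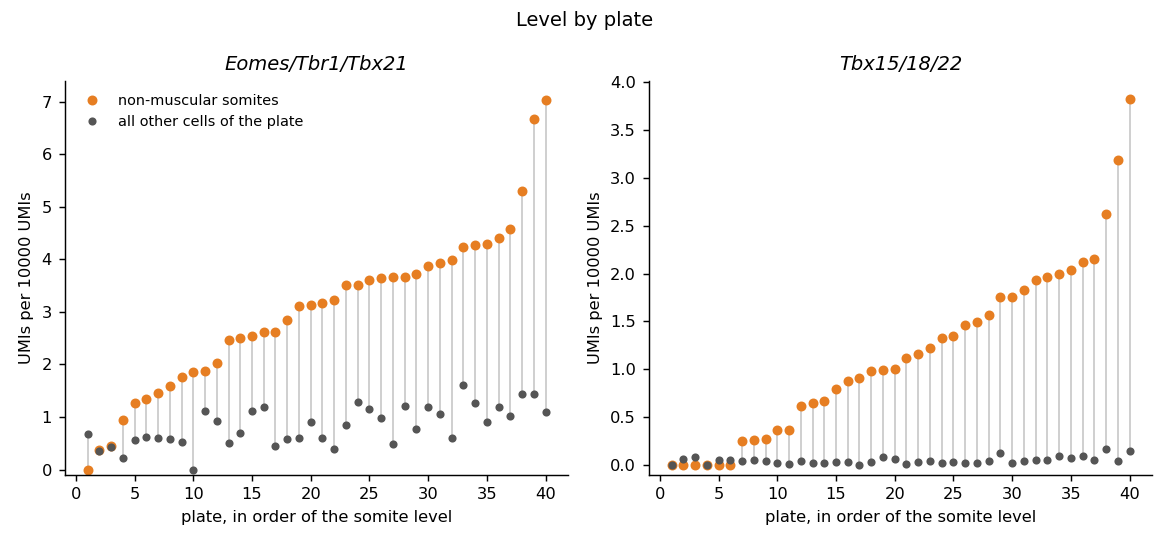
Level (UMIs per 10000 UMIs, y axis) in the non-muscular somites (orange) and in all other cells (grey) of each of the 40 plates (x axis, in order of the somite level). The somite level is higher in 39 plates for Eomes/Tbr1/Tbx21 and in 34 for Tbx15/18/22.

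The plates, which are technical batches of sorted cells and not replicates, had both genes higher in the non-muscular somites than in their other cells in most cases. In the non-muscular somites the level of Eomes/Tbr1/Tbx21 by plate ran from 0 over a median of 3.16 to 7.04, and it was above that of the other cells of the plate in 39 of 40 plates. Tbx15/18/22 ran from 0 over 1.06 to 3.82, was higher in 34 of 40 plates and was not found in the somite cells of the other 6. With any plate left out the somite levels stayed between 3.15 and 3.30 for the first gene and between 1.15 and 1.25 for the second. With equal weight to each plate the neural tailbud, at 2.55, stood above the notochord, at 2.20, for Eomes/Tbr1/Tbx21. The muscular somites were above the other cells in this gene in 19 of 40 plates.

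Tbx1/10 was found in the endostyle and in muscle, and not in the non-muscular somites. The level was 0.813 in the endostyle and club-shaped gland (0.591 to 1.09, 44 UMIs) and 0.409 in the muscular somites (0.262 to 0.608, 24 UMIs), a ratio of 1.99 (1.18 to 3.42). With equal weight to each plate these levels were 0.484 and 0.396. Together these types were 40.2 times (27.2 to 59.8) above all other cells. In the non-muscular somites there was no UMI among 2398658, which allows a level of up to 0.0125. The muscular somites were at least 24.6-fold above them by the exact interval of the ratio, and 32.7-fold with the limit of 3 counts in place of 0. The tailbud and the neural tailbud had none either, with 3-count limits of 0.0525 and 0.0414 and intervals up to 0.0646 and 0.0508.

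The other types held a scatter of UMIs. The endoderm had 12, at a level of 0.0533 (0.0275 to 0.0930), which was 15.3 times (7.93 to 31.8) below the endostyle, although both belong to the gut. The posterior epidermis had 16 UMIs in 6546 cells (0.0167) and the anterior epidermis 8 (0.00891). The third place of the putative neuro-endo cells, at 0.134, rests on 1 UMI. From there down, no neighbours in the order differed beyond counting error.

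The minimum of 50 UMIs left Tbx1/10 out of the count of 2-fold genes in every type, the endostyle (where 32.8% passed) included. With a minimum of 20 UMIs it was 36.3-fold higher in the endostyle (24.3 to 53.7), rank 6 of 4033, where 30.2% of genes passed. In the muscular somites it was 14.2-fold higher (8.64 to 22.4), rank 112 of 3853, where again 30.2% did. The gene was found in 11.7% of endostyle cells (median 1833 UMIs), 8.24% of muscular somite cells (2182 UMIs) and 0.229% of posterior epidermis cells. Thinned to 500 UMIs the shares were 3.01%, 1.63% and 0.0782%. By plate it was found in endostyle cells of 14 of 36 plates. The equal-weight level of 0.484 lies below the interval of the summed level.

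Each of the 4 metacells of these types held Tbx1/10. In the endostyle, metacell 3 had a level of 1.13 (0.791 to 1.56, 19 of 87 cells) and metacell 10 had 0.360 (0.155 to 0.709, 7 of 136 cells), a ratio of 3.14 (1.44 to 7.82). Metacell 3 was also above metacell 10 in Foxe, a forkhead factor of the thyroid lineage, at 13.2 against 3.60, in Nkx2.5, a homeobox factor, at 3.86 against 0.945, and in Pax1/9, a paired-box factor of the pharynx, at 6.37 against 4.05. In the muscular somites, metacells 14 and 15 had 0.349 and 0.440 and did not differ beyond counting error.

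Endostyle cells with Tbx1/10 were rich in the endostyle markers. In the 26 cells with the gene, Pax1/9 was found in 84.6%, Foxe in 65.4% and Nkx2.5 in 53.8%, against 39.1%, 30.5% and 16.8% of the 197 cells without. As levels the ratios were 2.17 (1.68 to 2.78) for Pax1/9, 1.95 (1.6 to 2.36) for Foxe and 2.79 (1.96 to 3.95) for Nkx2.5. Other genes of the endoderm went in different directions. Gsc was at 4.08 against 7.79 and Soxf, an HMG-box factor, at 1.1 against 2.73, and Otx, a homeobox factor, had a ratio of 0.713 (0.546 to 0.920). Nkx2.1, in vertebrates a homeobox factor of the thyroid and forebrain, was at 12.2 against 10.4 (1.18, 0.957 to 1.45) and Plac8-like at 23.1 against 24.5 (0.944, 0.814 to 1.09). Of the forkhead genes, Foxaa-1275 was at 0.306 against 2.12, from 3 UMIs, and Foxaa-1273 at 6.73 against 5.04 (1.34, 0.999 to 1.77). The cells with Tbx1/10 were deeper, at a median of 3824 UMIs against 1774. Thinned to 500 UMIs, Pax1/9 was found in 36.6% and 16.2%. Of the 26 cells, 19 were in metacell 3, which was above metacell 10 in Pax1/9, Foxe and Nkx2.5. The cells were not compared within metacells.

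Muscular somite cells with Tbx1/10 had more myosin light chain RNA than those without. MLC-alk, which encodes an alkali light chain of myosin, was found in all 15 muscular somite cells with Tbx1/10, at levels from 71.1 over a median of 125.1 to 201.1. It was found in 71 of the 167 cells without, whose median was 0 and whose highest level was 145.2. Of those 167 cells, 10 reached the lowest of the 15. The highest cell without thus lay above the median of the 15, and the groups overlap. The summed levels were 121.1 and 14.7, a ratio of 8.27 (7.49 to 9.13).

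The rest of the muscle program differed gene by gene in the same 15 cells. Mrf1, a myogenic regulatory factor, was at 11.8 against 3.17 (3.70, 2.81 to 4.85) and was found in 14 of the 15 cells. Mrf4, another factor of that family, was lower, at 1.13 against 3.29 (0.344, 0.146 to 0.694), and was found in 3 of them. Mef2, a MADS-box factor of muscle, was at 33.9 against 19.1 and Titin-like at 24.5 against 19.3. Genes of the somite list went both ways. Foxc was higher, at 13.3 against 7.45 (1.79, 1.41 to 2.24). Snail was at 0.567 against 2.34, from 4 UMIs, Hox3 at 0.425 against 1.61, from 3, and Gata1/2/3 had no UMI against 38. Brachyury2 was at 0.567 against 2.63, from 4 UMIs.

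The 15 cells came from 14 plates, 6 from metacell 14 and 9 from metacell 15, and held 1370 to 11572 UMIs each. Of them, 2 were over 4 times the median depth of the type. Without the cell with the most MLC-alk the summed level was 117.9, and thinned to 500 UMIs the gene was found in 99.5% of the 15 and 27% of the other cells. For Tbx15/18/22, MLC-alk was found in 9 of the 26 cells with the gene (34.6%) and 49.4% of those without, at summed levels of 35.2 and 25.8 (1.36, 1.21 to 1.53). A single cell held 28.6% of the MLC-alk UMIs of the 26 cells. Without that cell their level was 28.3, so most of the difference rests on it. Of the 15 cells with Tbx1/10, 3 (20% of them) held Tbx15/18/22, which was found in 14.3% of all muscular somite cells. The cells were chosen by detection of a gene with few UMIs, so cells without a UMI may still have held its RNA.

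**Figure D5:**
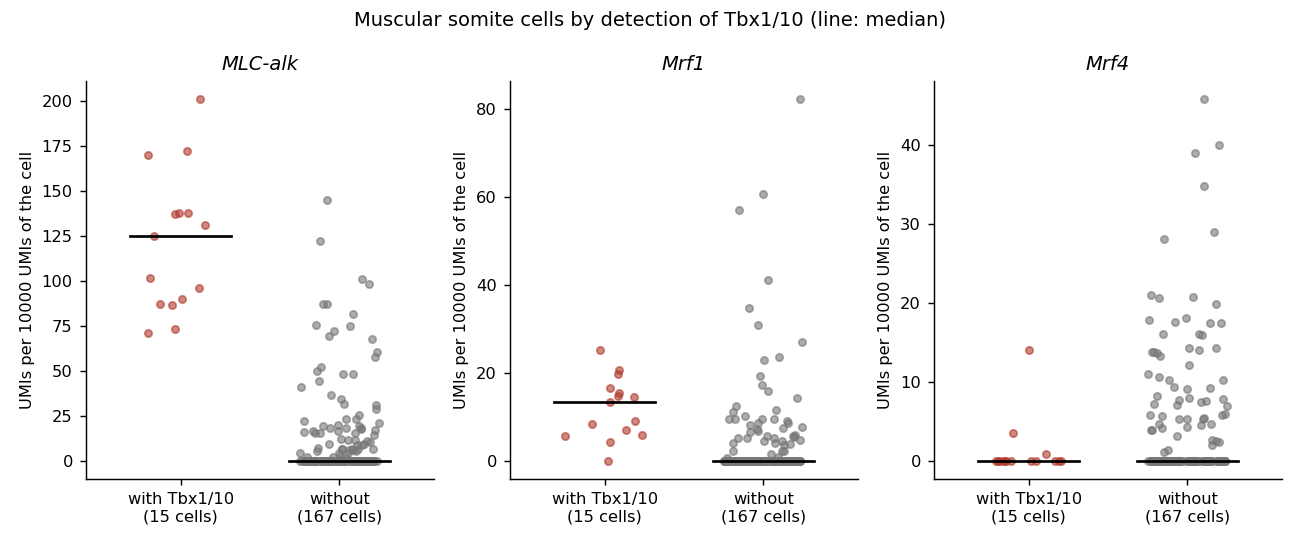
Levels of MLC-alk, Mrf1 and Mrf4 (y axes, UMIs per 10000 UMIs of the cell) in the 182 muscular somite cells, by whether a UMI of Tbx1/10 was found; each point is a cell and the line is the median. The 15 cells with Tbx1/10 all lie at or above 71.1 for MLC-alk, and 12 of them lie at 0 for Mrf4.

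The other T-box gene on the list, Brachyury2, a copy of the mesoderm and notochord regulator Brachyury, had the same 3 highest types as Eomes/Tbr1/Tbx21. Its level was 9.92 in the tailbud, 6.96 in the notochord, 3.29 in the non-muscular somites, 3.07 in the endostyle and 2.38 in the muscular somites. It was 3.02 times (2.7 to 3.36) higher in the tailbud than in the non-muscular somites, where Eomes/Tbr1/Tbx21 did not differ beyond counting error. In the neural tailbud Brachyury2 was at 0.455 and Eomes/Tbr1/Tbx21 at 2.51, and relative to all other cells the first was 0.426-fold and the second 2.49-fold. In single tailbud cells, 73.9% of the 111 cells with Eomes/Tbr1/Tbx21 and 48.8% of the 168 without held Brachyury2.

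Genes with patterns like those of the T-box genes were ranked by Pearson's correlation of log2(level + 0.1) over the 176 metacells, among genes with 200 or more UMIs. For Eomes/Tbr1/Tbx21 the first were BLAG15000532 (0.69) and BLAG06001019 (0.67), which the files do not pair with names, and among listed genes Nanos (0.58), Vasa (0.56) and Snail (0.55). Nanos and Vasa are known as germline genes, and here they are 2 of the 4 tailbud markers, all highest in the tailbud. For Tbx15/18/22 the first were BLAG11000562 (0.71) and BLAG05101607 (0.69), followed among listed genes by Mrf4 (0.65, rank 11), Foxc (0.59) and Titin-like (0.56). Among single muscular somite cells, Mrf4 was found in 38.5% of those with Tbx15/18/22 and 36.5% of those without. Thinned to 500 UMIs these shares were 10.5% and 17.7%. For Tbx1/10 the first of 9622 genes were Nkx2.5 (0.42) and Foxe (0.42), and Pax1/9 was at rank 4 (0.39). Of the 176 metacells, 139 held none of Tbx1/10. The lowest of the listed genes were epidermal: Tfap2 for Eomes/Tbr1/Tbx21 (-0.62) and Klf1/2/4 for Tbx15/18/22 (-0.49). The metacells share plates and depth, and these correlations carry no test.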

How the data were processed

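The authors sorted single cells into plates, made MARS-seq libraries, mapped reads with STAR and counted UMIs over exonic intervals. The authors deposited raw UMI counts of 27073 genes in 14586 cells. A table of their own fold changes, each metacell's regularized mean over the median metacell, was not used. A deposited annotation gave each cell its metacell and type. The 4 ATAC-seq samples were not used.

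Counts were summed over the cells of a type or metacell and divided by their total UMIs, with Python 3 (numpy, scipy, pandas). The fold is the level over that of all other cells, called at 2 or more with at least 50 UMIs in the type. Against a count of 0 a floor of 3 UMIs was used. Ratios have exact conditional 95% intervals, which treat the UMIs as independent and leave out the spread between cells. Shares were also computed for cells thinned to 500 UMIs, as the mean over all draws. Doublets were not called; 286 cells that exceeded the median depth of their type more than 4-fold were left out as an alternative, as were 904 cells under 500 UMIs. No cell name occurred more than once.

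The genes and gene lists were chosen with earlier results of these data known. Named genes were the 3 T-box genes, the 38 listed genes, and of the genes most alike the first 2 by rank and the first 3 listed. Cell types are the authors' and were named from markers by them, on the same cells.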

Additional observations from a re-analysis of the deposited data

How the results depend on the processing

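No paired analysis was possible because the cells are not assigned to the 2 numbered samples and no result comes from a test. With 1 pooled sample and counting intervals only, the spread between embryos is unknown, and values that rest on a few UMIs, as for Tbx1/10, allow wide ranges. Leaving out any of the 40 plates in turn kept all 440 levels inside their intervals, with Eomes/Tbr1/Tbx21 at 3.62 to 3.85 in the tailbud and Tbx1/10 at 0.727 to 0.859 in the endostyle and 0.334 to 0.433 in the muscular somites. Leaving out cells under 500 UMIs, or over 4 times the median depth, kept all 28 values, the ratios of the somite types included, inside theirs. The mean of single cells gave Eomes/Tbr1/Tbx21 levels of 3.0 in the non-muscular somites, 2.06 in the notochord, 1.66 in the neural cells and 1.31 in the muscular somites. The equal-weight mean over plates gave 2.20 in the notochord and 1.32 in the muscular somites, and 0.484 for Tbx1/10 in the endostyle.

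Folds over the highest other type were, for Eomes/Tbr1/Tbx21, 1.17 in the tailbud, and below 1 in the non-muscular somites (0.858), notochord (0.705), neural tailbud (0.667), neural cells (0.523) and muscular somites (0.444). They were 1.27 and 0.785 for Tbx15/18/22 in the non-muscular and muscular somites, and 1.99 and 0.502 for Tbx1/10 in the endostyle and muscular somites. Values under 1 follow from the choice of reference, since only 1 type can be highest. Over the median type the folds were 3.35 for Eomes/Tbr1/Tbx21 in the non-muscular somites, 37.2 and 29.2 for Tbx15/18/22, and 90.0 and 45.2 for Tbx1/10, in the same order. The Tbx15/18/22 median lies between the posterior epidermis (26 UMIs) and the endostyle (2 UMIs). For Tbx1/10 it lies between the anterior epidermis (8 UMIs) and the neural cells (3 UMIs). Folds over so few UMIs are imprecise and were given no interval.

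Thinning to 500 and to 1000 UMIs lowered every share. For Eomes/Tbr1/Tbx21 the shares were 14.7% and 27.8% in the tailbud, 12.9% and 23.8% in the non-muscular somites, 9.32% and 19.0% in notochord cells, 11.2% and 21.1% in the neural tailbud, 7.48% and 14.8% in the neural cells, and 6.17% and 12.4% in the muscular somites. For Tbx15/18/22 they were 5.10% and 8.69% in the non-muscular and 4.72% and 8.60% in the muscular somites. For Tbx1/10 they were 3.01% and 5.84% in the endostyle and 1.63% and 3.46% in the muscular somites.

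The count of genes past the fold moved with its threshold. At 1.5-fold it was 2764 in the non-muscular somites, 1070 in the tailbud, 1255 in the notochord, 3286 in the neural cells and 959 in the endostyle, and at 3-fold 481, 195, 386, 442 and 275, with 393 in the muscular somites. At 2-fold the counts were 1484, 487, 725, 1592, 625 and 704. With at least 20 UMIs at 2-fold they were 1165 in the muscular somites, 1063 in the tailbud and 1216 in the endostyle.
The authors' fold changes by metacell, planned as another source of the levels, were not used because they are the authors' own comparison. Among the genes most alike, ranks changed with Spearman's correlation, in which the first gene for Tbx1/10 fell to rank 1860.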
